A study of Mus musculus with 26 samples.

Results

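Protein-folding and stress-response genes, 10 in all, were followed across haematopoietic stem cells (HSCs) of 4 genotypes. They are Xbp1, Hspa5, Hsp90b1, Canx and Calr of the endoplasmic reticulum (ER), Atf4, Ddit3 and Ppp1r15a of the integrated stress response, and the cytosolic heat shock genes Hsp90aa1 and Hspa1a. All 10 were found by symbol among the 23416 genes of the expression table. They were chosen by their biology with the earlier RPKM differences between mutant and control libraries in view, so contrasts with control are described here without a test. HSCs were sorted from mouse bone marrow by flow cytometry and sequenced by Smart-Seq2, a full-length cDNA method for small cell numbers. The groups were double mutants carrying JAK2V617F and Ezh2 loss (7 libraries; their label spells the mutation JAK2V17F), JAK2V617F alone (7), Ezh2 loss alone (7) and control (5, also called WT). JAK2V617F is the activating kinase mutation of most myeloproliferative neoplasms, and Ezh2 is the enzyme with which a Polycomb complex methylates histone H3 at repressed genes. The labels do not give the alleles, the Cre driver or promoter behind them, anything else the groups share, or the strain, age, sex and cells per library. They do not say that the libraries of a group came from separate mice, so p-values measure the spread between these libraries.

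Proteins that enter the ER fold with the help of the luminal chaperones BiP (Hspa5) and GRP94 (Hsp90b1) and of the lectins calnexin (Canx) and calreticulin (Calr), which hold glycoproteins until they are folded. When unfolded protein builds up, 3 sensors start the unfolded protein response: IRE1 splices the Xbp1 mRNA into that of an active transcription factor, ATF6 is cut to release another, and PERK phosphorylates eIF2-alpha. That phosphorylation slows translation but raises translation of Atf4, whose targets include Ddit3 (CHOP), linked to apoptosis, and Ppp1r15a (GADD34), which brings a phosphatase back to eIF2-alpha. In the cytosol HSF1 drives Hsp90aa1 and Hspa1a. HSCs are known for a low rate of protein synthesis and for sensitivity to misfolded protein, and mutant calreticulin is itself a driver of human myeloproliferative neoplasms. The unit here, RPKM (reads scaled by gene length and library size), shows neither Xbp1 splicing nor translation of Atf4.

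The ER chaperones are classical targets of ATF6 and XBP1 through the ER stress response element (ERSE), which reads CCAAT, then 9 bases of any kind, then CCACG. The windows of 300 bases around the gene starts in RefSeq (GRCm38.p6, 250 bases before and 50 after the start) were searched on both strands. An entry was available for 9 of the 10 genes, all but Hsp90aa1. The exact element was present in 4 of those 9 genes, beside 37 of all 27025 genes with an entry (39 of 32851 windows, 0.119%). Since the ER chaperones are classical targets through this element, the count is a description. The stretches below are the 4 windows' elements with 10 flanking bases, because these are the members that the shared element sets apart in sequence. Capitals mark the conserved ends of the element, which read CGTGG and ATTGG where it lies on the other strand.
Hspa5, chr2:34772015-34772053, plus strand: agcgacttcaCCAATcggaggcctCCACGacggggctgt
Hsp90b1, chr10:86705523-86705666, minus strand: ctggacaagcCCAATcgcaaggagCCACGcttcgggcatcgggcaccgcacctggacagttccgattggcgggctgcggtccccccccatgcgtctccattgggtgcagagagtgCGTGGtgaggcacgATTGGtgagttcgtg
Calr, chr8:84847065-84847103, minus strand: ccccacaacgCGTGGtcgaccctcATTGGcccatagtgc
Canx, chr11:50325790-50325828, minus strand: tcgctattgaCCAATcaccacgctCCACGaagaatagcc
Counted from the RefSeq gene start, the element began at position -65 in Hspa5, -145 in Canx and -162 in Calr. In GENCODE, the source of the gene coordinates given below, Hspa5 starts earlier, at chr2:34771970, so its stretch lies inside that gene. Hsp90b1 carried the element on each strand, at -212 and -107. Among the other genes of the folding lists described further on, Creld2, Dnajc3, Pdia6, Syvn1 and Derl3 also held it. ERSE-II (ATTGG, any 1 base, CCACG; in 0.0365% of windows), the XBP1 core TGACGTGG (0.676%), the ATF4 element TGATGNAA (3.97%) and a heat shock element (GAA, TTC and GAA spaced by 2 bases; 0.603%) were found in 0 of the 9. Of the cytosolic heat shock members only Hspa1a was among the 9, so Hsp90aa1 was not searched for the heat shock element. A match describes these letters only, and none of the factors was measured.

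The library totals, recovered from the RPKM steps, ran from 7.82 to 29.2 M reads. Stem cell markers such as Procr and Hlf were present in every group, with a summed level of 788 to 1304 RPKM in double mutant, 586 to 1152 in JAK2V617F, 611 to 1301 in Ezh2 loss and 469 to 1208 in control libraries. Libraries also stood apart by other cells' transcripts. Neutrophil markers summed to 47.0 to 52098 RPKM in double mutant, 72.9 to 17655 in JAK2V617F, 404 to 38184 in Ezh2 loss and 43.5 to 388 in control libraries, with Elane and Mpo at 0 throughout JAK2V617F and Lcn2 and Retnlg at 0 throughout control libraries. Immediate early genes of the dissociation response, such as Fos and Egr1, summed to 1376 to 6057 RPKM in double mutant, 1691 to 4014 in JAK2V617F, 1861 to 5590 in Ezh2 loss and 2692 to 6387 in control libraries. The sample titles follow 2 styles, with a library number before the group code (number-first, 15 libraries) or after it (number-last, 11). What the style stands for is not given. All 7 double mutant, 2 of 7 JAK2V617F, 2 of 7 Ezh2 loss and 4 of 5 control libraries were number-first, so title style was fitted beside genotype throughout.

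**Figure D1:**
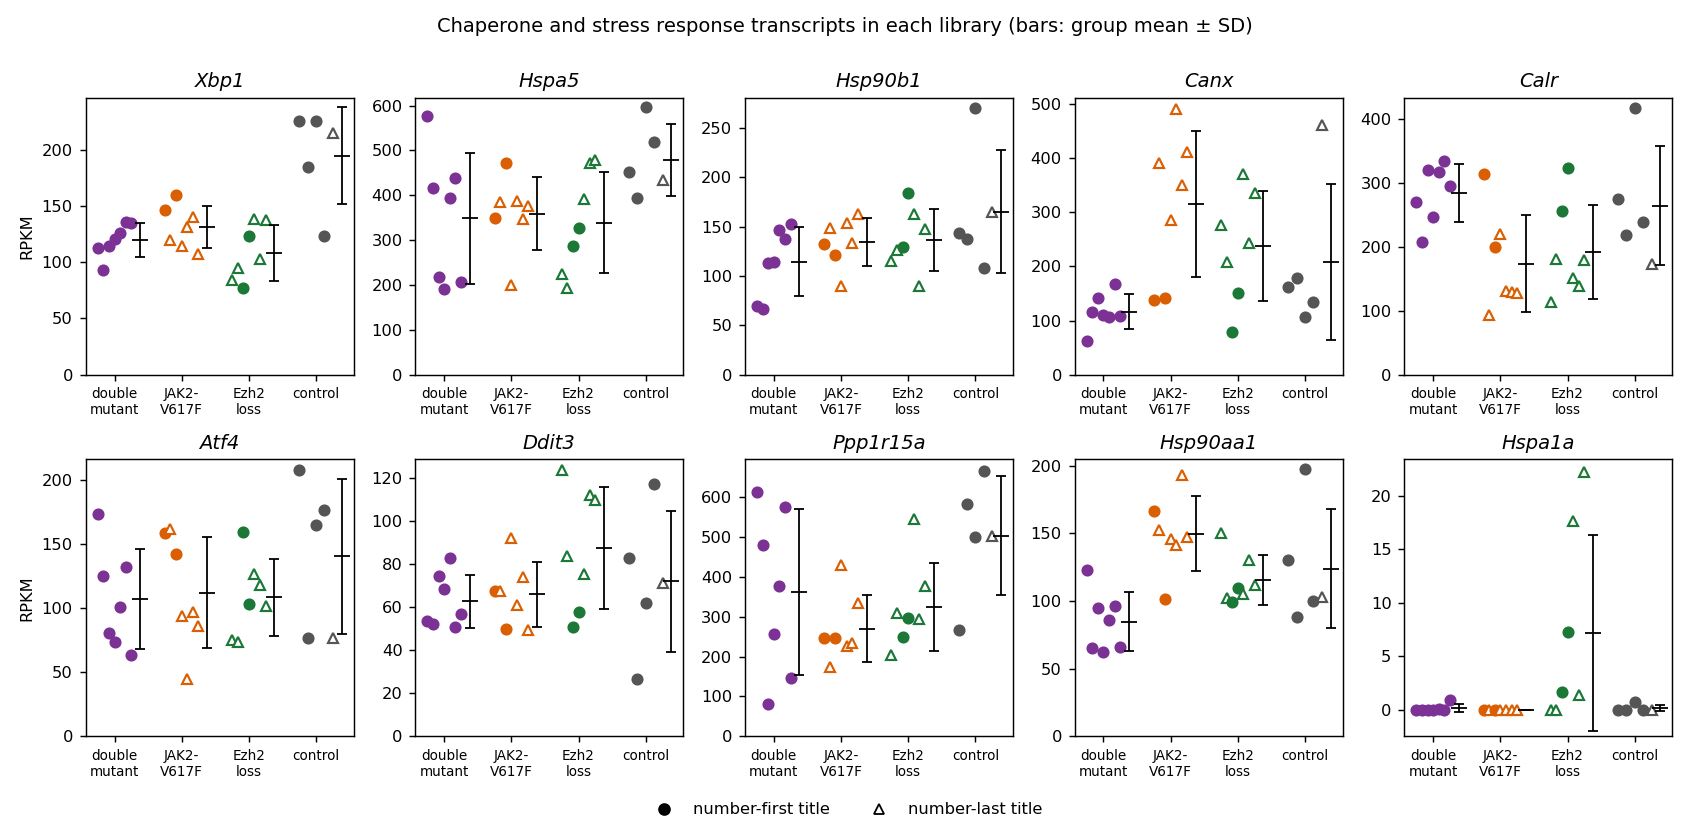
RPKM of each member (y axis) in every library by group (x axis), with filled circles for number-first and open triangles for number-last titles, and the group mean ± SD at the right of each group. In Xbp1, 4 of 5 control libraries lie above every mutant library, and in Canx the circles and triangles do not overlap.

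Canx and Calr, the membrane-bound and soluble partners of one lectin cycle, went opposite ways between the title styles. Canx (chr11:50293961-50325673) had a lowest, median and highest level of 62.3, 134 and 179 RPKM in number-first libraries, against 208, 350 and 491 RPKM in number-last libraries. The styles did not overlap. In such bulk libraries, fewer cells of a type and less RNA per cell cannot be told apart. Calr (chr8:84841850-84846934) stood at 200, 275 and 417 RPKM in number-first libraries, against 93.7, 139 and 220 RPKM in number-last libraries. Here 12 of the 15 number-first libraries lay above every number-last library. The means were 127 ± 32.6 RPKM in number-first and 348 ± 89.1 RPKM in number-last libraries for Canx (SD, n = 15 and 11). For Calr they were 283 ± 57.7 RPKM in number-first and 149 ± 36.2 RPKM in number-last libraries. With genotype in the limma fit of log2(RPKM + 1), Canx was lower in number-first libraries by a log2 fold change of -1.46 (SE 0.19, adjusted p = 1.43e-06). Calr was higher by 0.86 (SE 0.17, adjusted p = 0.000756). Each p-value is that of limma, adjusted by Benjamini-Hochberg over 12116 tested genes, of which 11% passed in this contrast, 7.68% higher and 3.3% lower.

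Both genes kept their direction inside each genotype that has both styles. Canx averaged 140 RPKM in the 2 number-first and 386 RPKM in the 5 number-last JAK2V617F libraries, and 115 and 287 RPKM in the 2 and 5 Ezh2 loss libraries of those styles. For Calr the same means were 257 and 140 RPKM in JAK2V617F, and 289 and 153 RPKM in Ezh2 loss. In control, the 4 number-first libraries lay at 106 to 179 RPKM of Canx and 219 to 417 RPKM of Calr, and the 1 number-last library at 462 and 173 RPKM. In these JAK2V617F and Ezh2 loss libraries alone the fold changes were -1.40 for Canx (adjusted p = 0.000114) and 0.91 for Calr (adjusted p = 0.0121).

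RPKM is per gene length, so a ratio of the pair can be formed within a library, though it is one of RPKM and not of molecules. The ratio of Canx to Calr was 0.468 ± 0.162 in number-first libraries (SD, n = 15), with a range of 0.23 to 0.816, and 2.50 ± 0.960 in number-last libraries (n = 11), with a range of 1.15 to 4.17. Calr had the higher RPKM in every number-first library and Canx in every number-last one. Of their stretches of 50 bases, 0% of Canx and 0.468% of Calr occur in another annotated gene, which for Calr is the pseudogene Calr-ps. Depth moved with style, averaging 19.9 M reads in number-first and 11.8 M reads in number-last libraries, and the summed stem cell markers had medians of 948 and 685 RPKM. Their part in the result was not tested.

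**Figure D2:**
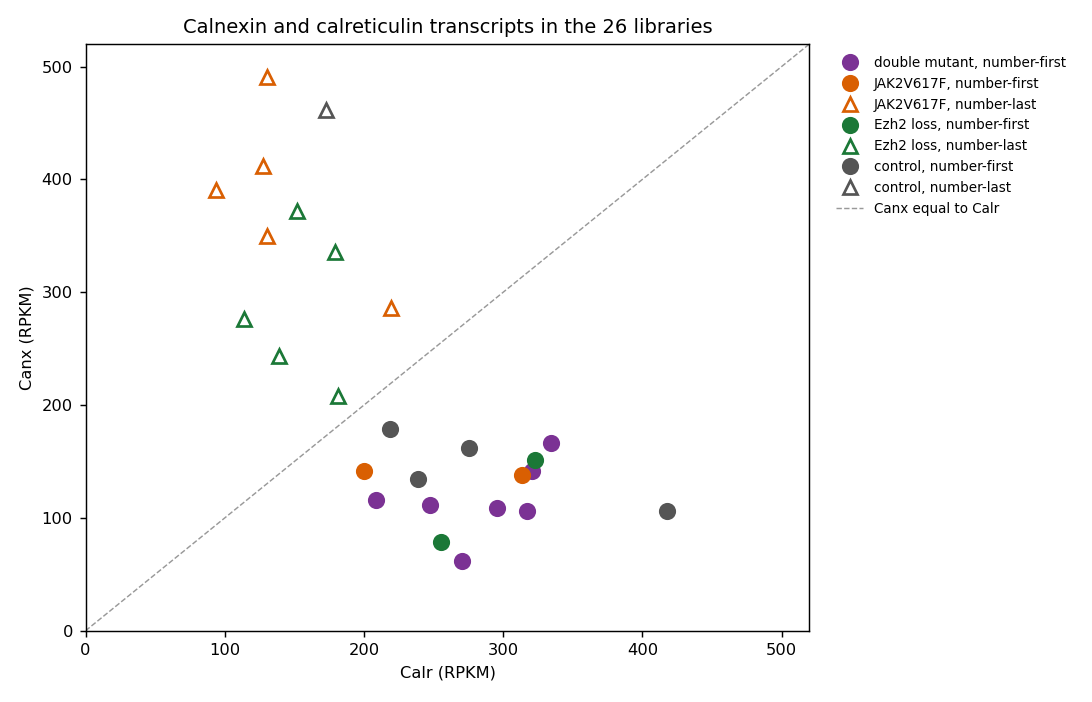
Canx against Calr in RPKM for the 26 libraries, coloured by genotype, with filled circles for number-first and open triangles for number-last titles and a dashed line where the genes are equal. All 15 number-first libraries lie below the line (ratio up to 0.816) and all 11 number-last libraries above it (ratio from 1.15).

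Of the 9 members tested by title style, 2 passed (22.2%, Canx and Calr), where 11% of all tested genes did. At an unadjusted limma p under 0.05 stood 3 of the 9 (Canx, Calr and Atf4), where 23.4% of all tested genes did. Of the 7 that did not pass, Atf4 came nearest at 0.65 (SE 0.25, adjusted p = 0.097). Its means were 129 ± 44.4 RPKM in number-first and 95.8 ± 31.4 RPKM in number-last libraries. Ddit3 was at -0.45 (SE 0.23, adjusted p = 0.243), Ppp1r15a at -0.16 (SE 0.32, adjusted p = 0.826) and Hsp90aa1 at -0.11 (SE 0.18, adjusted p = 0.775). Xbp1, Hspa5 and Hsp90b1 lay at 0.02, 0.11 and 0.06 (SE 0.16, 0.23 and 0.21, adjusted p = 0.973, 0.831 and 0.911). Hspa1a, which reached the expression filter only through Ezh2 loss, was at 0.13 (SE 0.52) and is given no test. The 95% interval for Xbp1 was -0.32 to 0.35, so a style difference as large as those of Canx or Calr lies outside it. The median over all tested genes was 0.17.

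The 10 lists of related genes held 173 tested genes besides the members, of which 22 passed by title style (12.7%, 14 higher and 8 lower), beside 11% of all tested genes. In the calnexin cycle list (15 tested genes) Canx and Calr were the 2 that passed. In disulfide formation (14) Txndc5, a protein disulfide isomerase, was higher at 1.74 (adjusted p = 0.000733) and the sulfhydryl oxidase Qsox1 lower at -1.64 (0.0129). In ER-associated degradation (18) Vcp, the ATPase that pulls proteins out of the membrane, and the ubiquitin ligase Rnf5 were higher at 1.03 (0.00272) and 1.06 (0.0135), and Herpud1, of the same machinery, was lower at -0.79 (0.00148). In translocation (19) the translocon-associated Ssr1 was lower at -1.28 (0.000271). Among luminal chaperones (22) only the prolyl isomerase Ppib passed, at 0.54 (0.0181), and among sensors and transcription factors (13) only Nfe2l2, at 0.93 (0.0259).

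In the integrated stress response list, 5 of 29 genes passed higher and 1 lower in number-first libraries, where 7.68% of all tested genes passed higher and 3.3% lower. Those with the smallest p were the transcription factor Cebpb, at 57.2 ± 46.6 RPKM in number-first and 1.90 ± 1.75 RPKM in number-last libraries (4.93, adjusted p = 2.16e-05), the serine synthesis enzyme Phgdh (1.16, 0.00121), the CHOP target Trib3 (1.96, 0.00512) and the serine hydroxymethyltransferase Shmt2 (1.22, 0.0114). In the cytosolic heat shock list, 3 of 32 passed higher and 2 lower, beside the same shares. Bag1, an HSP70 co-chaperone, stood at 148 ± 49.2 RPKM in number-first and 40.1 ± 23.7 RPKM in number-last libraries (2.12, 1.49e-05). The factor Hsf2 (-2.60, 5.52e-05) and the co-chaperone Dnajc7 (-1.08, 0.0017) were lower, and the small heat shock protein Hspb8 was higher (2.28, 0.0171). Mitochondrial Trap1 (-0.88, 0.00131) and the prefoldin subunits Pfdn5 (-0.80, 0.0017) and Pfdn2 (0.52, 0.0161) passed in the remaining lists. These are limma adjusted p-values from the same fit.

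Between mutant groups, 0 of the 9 members other than Hspa1a passed in the limma fit. At an unadjusted p under 0.05 stood Hsp90aa1 in double mutant against JAK2V617F and Canx in Ezh2 loss against JAK2V617F. The share of all 12116 tested genes that passed by genotype was 0.00825% in double mutant against control (1 gene, Gm2a), 0% in JAK2V617F and in Ezh2 loss against control, 0.033% in double mutant against JAK2V617F (4 genes: Esr1, Dynlt1b, Pde2a and Rpl39), 0% in double mutant against Ezh2 loss, 0.099% in Ezh2 loss against JAK2V617F (12 genes) and 0% in the interaction, the part of the double mutant difference beyond the sum of the single ones. At an unadjusted p under 0.05 the limma fit counted 748, 501, 736, 977, 950, 1002 and 738 genes in those contrasts. The 5 genes named here were chosen after their values were seen. Leaving out 1 library moved the first count to between 0 and 6.

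Xbp1 (chr11:5520659-5525893), the transcription factor spliced by IRE1, was lower in all 3 mutant groups than in control. Its lowest, median and highest values were 93.1, 121 and 136 RPKM in double mutant libraries, 107, 131 and 160 RPKM in JAK2V617F and 77.3, 103 and 138 RPKM in Ezh2 loss, against 226, 185, 225, 123 and 215 RPKM in the 5 control libraries. Thus 4 of 5 control libraries lay above every mutant library, and control replicate 4 lay inside the mutant range. The means were 120 ± 14.9, 131 ± 18.8 and 108 ± 24.9 RPKM in the 3 mutant groups (SD, n = 7 each), against 195 ± 43.4 RPKM in control (n = 5). As a description, the log2 fold changes against control were -0.68 (SE 0.18) in double mutant, -0.54 (SE 0.20) in JAK2V617F and -0.83 (SE 0.20) in Ezh2 loss libraries. These 3 contrasts share the control libraries. Within number-first libraries the values were -0.63, -0.27 and -0.91, and with the neutrophil markers as a covariate -0.70, -0.55 and -0.88. Erythroid markers summed to 5.29 to 42.1 RPKM in double mutant, 0 to 26.5 RPKM in JAK2V617F and 29.7 to 6074 RPKM in Ezh2 loss libraries, against 5.75 to 22.3 RPKM in control, with Hba-a1, Hba-a2 and Hbb-b2 at 0 throughout. Their part in the result was not tested.

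The Xbp1 difference from control in the double mutant was smaller than the sum of those in the single mutants. The interaction was 0.69 (SE 0.32) on the log2 scale, a description, since it is built from the known differences from control. Between mutant groups the Xbp1 values overlapped: 1 of 7 double mutant libraries lay below the JAK2V617F range, and 0 of 7 lay outside that of Ezh2 loss. Of the Ezh2 loss libraries 4 of 7 lay below every JAK2V617F library, and 3 of 7 JAK2V617F libraries lay above every Ezh2 loss and every double mutant library. Genotype group alone accounted for 57.0% of the variance of log2 Xbp1 between libraries and title style alone for 3.16%, so of the 10 members its level followed the groups most closely. Since this contrast was known when the genes were picked, that order is a description.

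**Figure D3:**
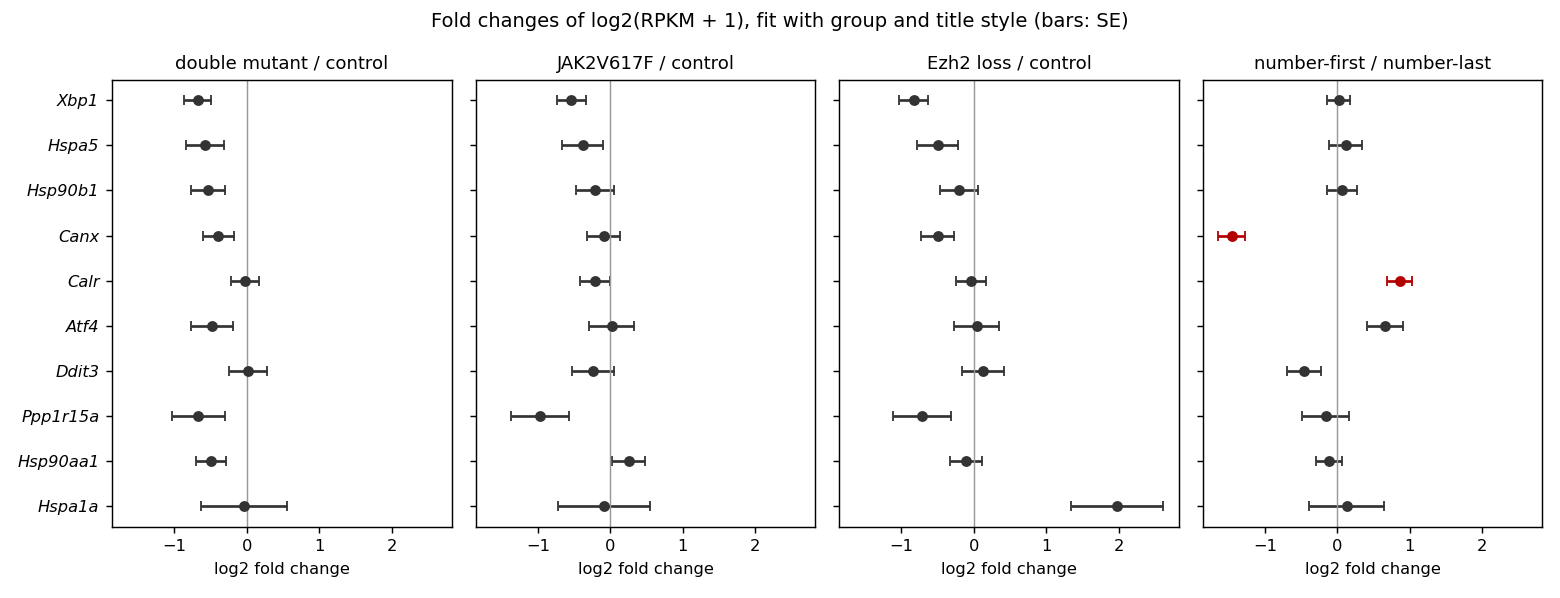
Log2 fold changes of log2(RPKM + 1) with SE bars from the fit with genotype and title style, for each mutant group over control and for number-first over number-last titles. Red marks the members with adjusted p under 0.05 by title style, Canx at -1.46 and Calr at 0.86. No test is shown against control.

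Hspa5 (chr2:34771970-34777547), encoding BiP, was the most abundant member by its mean over the 26 libraries pooled, at rank 262 of all genes. By group, Ppp1r15a had the higher mean in double mutant (362 RPKM, beside 349 RPKM of Hspa5) and in control libraries (504 beside 479 RPKM). It stood at 191, 394 and 577 RPKM (lowest, median, highest) in double mutant, 200.5, 377 and 472 RPKM in JAK2V617F and 193, 328 and 478 RPKM in Ezh2 loss libraries. The 5 control libraries had 451, 395, 597, 519 and 434 RPKM. Below the lowest control lay 4 of 7 double mutant, 6 of 7 JAK2V617F and 5 of 7 Ezh2 loss libraries. The fold changes against control were -0.58 (SE 0.26) in double mutant, -0.38 (SE 0.29) in JAK2V617F and -0.50 (SE 0.29) in Ezh2 loss libraries, and with the neutrophil markers as a covariate -0.47, -0.29 and -0.27. Double mutant libraries were unevenly spread: replicates 3, 4 and 7 had 219, 191 and 208 RPKM, and the other 4 had 394 to 577 RPKM. Summed neutrophil markers in replicates 3, 4 and 7 were 26708, 52098 and 860 RPKM, against 47.0 to 604 RPKM in the other 4, and their summed immediate early genes 1376, 2172 and 2032 RPKM against 1854 to 6057 RPKM. Their part in the spread was not tested.

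Hsp90b1 (chr10:86690209-86705509), encoding GRP94, had 66.6, 114 and 153 RPKM in double mutant, 89.7, 134 and 163 RPKM in JAK2V617F and 89.9, 129 and 184 RPKM in Ezh2 loss libraries, against 144, 138, 271, 108 and 165 RPKM in control. All groups overlapped. The fold changes against control were -0.53 (SE 0.24), -0.21 (SE 0.26) and -0.20 (SE 0.26), in the same order. Without control replicate 3, the library at 271 RPKM, they were -0.33, -0.045 and -0.035. Of its 50-base stretches, 13.8% occur in another annotated gene.

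Canx and Calr showed how genotype and title style mix. Their means were 116 ± 32.4 and 285 ± 45.4 RPKM in double mutant, 316 ± 135 and 174 ± 76.0 RPKM in JAK2V617F and 238 ± 102 and 192 ± 73.1 RPKM in Ezh2 loss, against 209 ± 144 and 265 ± 93.0 RPKM in control libraries. With style in the fit, Canx was at -0.39 (SE 0.21) in double mutant, -0.09 (SE 0.23) in JAK2V617F and -0.50 (SE 0.23) in Ezh2 loss against control, and Calr at -0.02, -0.21 and -0.04 (SE 0.19, 0.21 and 0.21). Without style, Canx in double mutant against JAK2V617F was -1.34 and would pass (limma adjusted p = 0.0313, where 2.26% of genes passed), while with style it was -0.30. In Ezh2 loss against JAK2V617F, where the styles are balanced, Canx was at -0.41 (SE 0.19, limma adjusted p = 0.572). Of the variance of log2 values between libraries, style alone took 77.7% for Canx and 69.6% for Calr, and group alone 38.7% and 37.3%.

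The RPKM of the integrated stress response members showed no shared direction. Atf4 (chr15:80255184-80257541) had 63.1, 100 and 173 RPKM in double mutant, 44.4, 96.6 and 162 RPKM in JAK2V617F and 73.5, 103 and 159 RPKM in Ezh2 loss, against 208, 76.6, 165, 176 and 76.6 RPKM in control libraries. The groups overlapped widely, and the fold changes against control were -0.48 (SE 0.29), 0.02 (SE 0.31) and 0.04 (SE 0.31). Ddit3 (chr10:127290774-127296288) averaged 62.6 ± 12.5, 65.8 ± 14.9 and 87.5 ± 28.2 RPKM in the 3 mutant groups, against 71.9 ± 32.8 RPKM in control, with fold changes of 0.02, -0.24 and 0.13 (SE 0.27, 0.29 and 0.29). The Ezh2 loss values above those of double mutants were 4 of 7 and lay between 83.7 and 124 RPKM, in number-last libraries.

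Ppp1r15a (chr7:45522916-45526268), the feedback phosphatase subunit, was lower in each mutant mean. It had 82.1, 378 and 615 RPKM in double mutant, 174, 247 and 431 RPKM in JAK2V617F and 203, 298 and 545 RPKM in Ezh2 loss libraries, against 267, 584, 502, 666 and 502 RPKM in control. The ranges overlapped, with control replicate 1 far below its group. Fold changes against control were -0.67 (SE 0.37), -0.97 (SE 0.40) and -0.71 (SE 0.40), each with a larger SE than those of Xbp1. With the neutrophil markers as a covariate they were -0.37, -0.73 and -0.072. The 3 lowest double mutant libraries, at 82.1, 146 and 257 RPKM, were replicates 3, 7 and 4, whose neutrophil sums stand above with Hspa5, and without replicate 3 the double mutant value was -0.36. The summed immediate early genes had medians of 2172 RPKM in double mutant, 2527 RPKM in JAK2V617F and 4407 RPKM in Ezh2 loss, against 3731 RPKM in control. Their part in the result was not tested.

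Hsp90aa1 (chr12:110690605-110702728), the inducible cytosolic HSP90, was lower in most double mutant libraries than in either single mutant. It had 62.3, 85.9 and 123 RPKM in double mutant libraries, 101, 147 and 193 RPKM in JAK2V617F and 99.1, 110 and 150 RPKM in Ezh2 loss, against 131, 88.1, 198, 100.2 and 103 RPKM in control. Of the double mutant libraries, 6 of 7 lay below every JAK2V617F library and 6 of 7 below every Ezh2 loss library. The means were 84.8 ± 22.1 RPKM in double mutant and 150 ± 27.8 RPKM in JAK2V617F libraries (SD, n = 7 each). The fold change of double mutant against JAK2V617F was -0.75 (SE 0.23), which did not pass with style in the fit (limma adjusted p = 0.308). Without the style term it was -0.83 and passed (adjusted p = 0.0201, where 2.26% of genes passed), and within number-first libraries, with 7 against 2, it was -0.65 (adjusted p = 0.784). Leaving out 1 library gave adjusted p-values of 0.145 to 0.644. Against control the values were -0.50 (SE 0.21) in double mutant, 0.25 (SE 0.23) in JAK2V617F and -0.11 (SE 0.23) in Ezh2 loss. Without control replicate 3 they were -0.29, 0.42 and 0.054, so that of Ezh2 loss changed sign. Without control replicate 5 the JAK2V617F value was 0.10 and the Ezh2 loss value -0.26, and in number-first libraries these were 0.080 and -0.23. Of the 50-base stretches of Hsp90aa1, 58.5% also occur in other annotated genes, chiefly Gm12346, so its level depends on how shared reads were counted, which is not given.

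Hspa1a (chr17:34969190-34972156), the stress-inducible HSP70, was above 1 RPKM in Ezh2 loss libraries only. It had 0 reads in 18 of 26 libraries, where a count of 0 allows up to 3 reads (0.0367 to 0.127 RPKM across these libraries, for counting error only). In Ezh2 loss it stood at 0, 0, 1.66, 7.27, 17.6, 1.36 and 22.2 RPKM, or up to 807 reads. In the double mutant 5 of 7 libraries had 0 and the other 2 had 0.0155 and 0.930 RPKM, in JAK2V617F 7 of 7 had 0, and in control 4 of 5 had 0 and replicate 3 had 0.688 RPKM. It entered the test only through that group, so its difference is given with no test. The 5 Ezh2 loss libraries above 1 RPKM included both title styles.

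The near-identical Hspa1b (chr17:34956436-34959238) changes that picture. Of the 50-base stretches of Hspa1a, 58.8% occur in Hspa1b, so reads of the pair cannot be fully told apart. Summed, the pair had 0, 0.109 and 7.34 RPKM (lowest, median, highest) in double mutant, 0, 0 and 2.96 RPKM in JAK2V617F and 0, 2.82 and 27.1 RPKM in Ezh2 loss libraries, against 3.27, 0, 8.65, 4.24 and 0 RPKM in control. The 3 highest libraries, at 17.6, 17.7 and 27.1 RPKM, were Ezh2 loss, and the other 4 of that group lay within the control range. Those 3 libraries had summed neutrophil markers of 14675, 404 and 26813 RPKM and summed immediate early genes of 4407, 5590 and 4485 RPKM, against 4635 to 38184 RPKM and 1861 to 4862 RPKM in the other 4. Their erythroid sums were 48.4, 1647 and 29.7 RPKM, against 1051, 3462, 30.8 and 6074 RPKM in the other 4. Their part in the result was not tested.

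**Figure D4:**
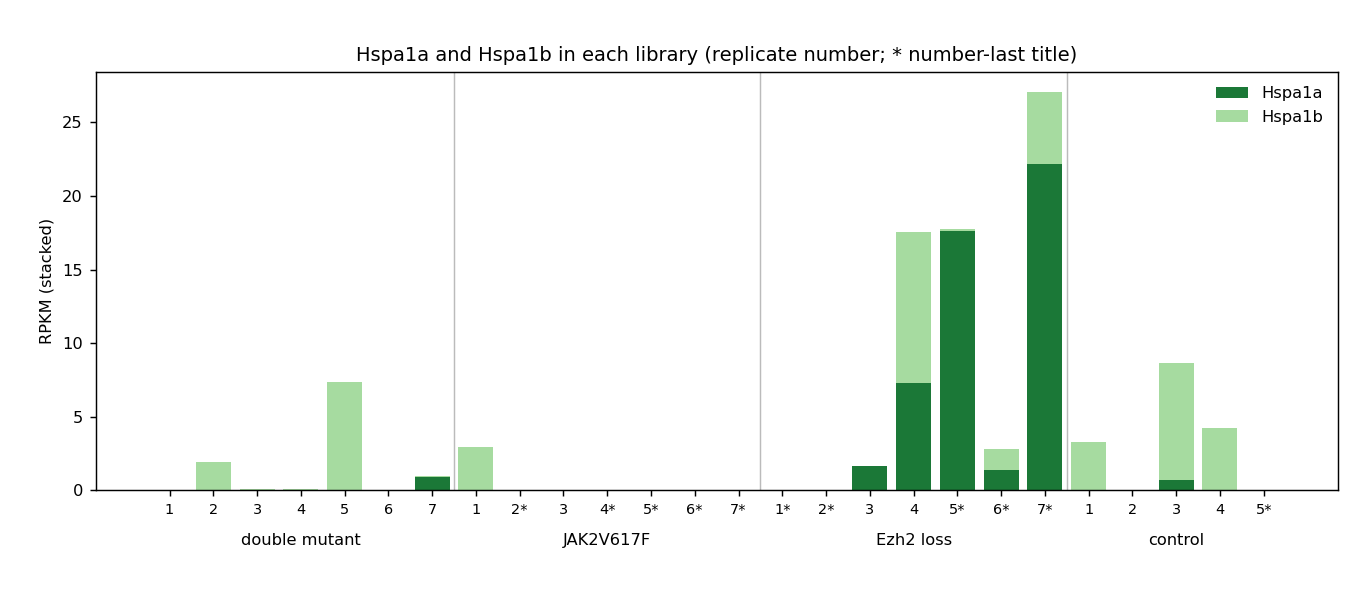
Stacked bars of Hspa1a and Hspa1b in RPKM for each library, ordered by group and replicate, with an asterisk on number-last titles. The 3 tallest bars (17.6, 17.7 and 27.1 RPKM) are Ezh2 loss libraries, and JAK2V617F has 1 library above 0.

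The mean log2 level of the ER members was set against that of the cytosolic pair, in which Hspa1a is at 0 in 18 of 26 libraries. The mean log2(RPKM + 1) of the 5 ER genes minus that of Hsp90aa1 and Hspa1a was 4.14 ± 0.24 in double mutant, 4.004 ± 0.178 in JAK2V617F, 3.02 ± 0.66 in Ezh2 loss and 4.33 ± 0.29 in control libraries (SD, n = 7, 7, 7 and 5). The ER mean itself was 7.40 ± 0.21, 7.61 ± 0.12 and 7.48 ± 0.28 in the mutant groups, against 7.85 ± 0.23 in control. Against Hsp90aa1 alone the gap was 1.01 ± 0.36 in double mutant, 0.40 ± 0.30 in JAK2V617F, 0.63 ± 0.39 in Ezh2 loss and 0.95 ± 0.34 in control. Without Hspa1a, then, the mean gap of Ezh2 loss was no longer the lowest, but still below those of double mutant and control. In Ezh2 loss replicate 1 this gap was below 0 (-0.028). The constitutive cytosolic HSP90 gene Hsp90ab1, no member, averaged 668 RPKM over the 26 libraries, above the mean of each ER member. These are descriptions of chosen genes, with no test.

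Of the 173 list genes besides the members, 0 passed in the 7 genotype contrasts in the limma fit, and 5 to 19 had an unadjusted p under 0.05. Over all tested genes the share at that p was 4.14% to 8.27%. The list counts and medians below include the members, which were chosen with their differences from control in view. Hspa5 and Hsp90b1 (-0.58 and -0.53 in double mutant against control) are among the luminal chaperones. The heat shock list includes Hspa1a, which passed the filter only through Ezh2 loss. Luminal chaperones and their helpers lay mostly below control in the double mutant, 17 of 22 with a median of -0.29, where the median over all tested genes was -0.01. The count was 17 of 22 in TPM and under median-ratio scaling too. The medians of that list were -0.10 in JAK2V617F and -0.13 in Ezh2 loss against control, beside -0.02 and -0.03 over all genes. In double mutant against JAK2V617F the same list had 16 of 22 genes lower and a median of -0.34, beside 0.01 over all genes. Translocation genes were lower in the double mutant for 18 of 19 (median -0.18), but for 13 of 19 in number-first libraries alone. Cytosolic heat shock genes had medians of -0.12, 0.07 and -0.10 in the 3 mutant groups against control, with 25, 15 and 18 of 32 lower. The integrated stress response list was at 0.02, -0.04 and -0.12, and the sensors and transcription factors at 0.04, -0.08 and 0.06. Disulfide formation genes were lower in Ezh2 loss for 12 of 14, with a median of -0.31. This was not particular to ER lists. Above control in Ezh2 loss lay 1 of 13 genes of the chaperonin TRiC and prefoldin (median -0.116) and 3 of 12 mitochondrial chaperones (-0.219). For translocation it was 3 of 19 (-0.145), and for sensors and transcription factors 8 of 13. In the double mutant against control, the remaining medians were -0.09 for disulfide formation, -0.04 for the calnexin cycle, -0.02 for ER-associated degradation, 0.08 for mitochondrial chaperones and -0.11 for the chaperonin TRiC and prefoldin.

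Between libraries the members did not move as one set. Correlations were computed for 36 pairs of 9 members within each title style, 72 in all, with libraries of different genotypes pooled (Hspa1a was left out). Genotype was not removed, so differences between groups, in view when the members were chosen, enter each r and its p-value. In number-first libraries Hspa5 averaged 491 RPKM in control and 349, 410 and 307 RPKM in double mutant, JAK2V617F and Ezh2 loss. Ppp1r15a averaged 505 RPKM in control and 362, 247 and 274 RPKM in the same order. The part of these differences in the correlations was not tested. Hspa5 and Ppp1r15a had the one Pearson r that passed after adjustment, 0.76 in the 15 number-first libraries (permutation p = 0.00067, adjusted p = 0.0482), with Spearman's rho 0.68 (permutation p = 0.00716, adjusted p = 0.103) and r = 0.79 without the 2 libraries farthest from the median of Hspa5. Hspa5 and Atf4 had r = 0.75 in the same libraries (permutation p = 0.00175, adjusted p = 0.063), rho 0.75 (permutation p = 0.00234, adjusted p = 0.0421) and r = 0.57 without 2 libraries. Without double mutant replicates 3, 4 and 7, a choice made after seeing the data, the r of the 12 libraries left was 0.59 for Hspa5 with Ppp1r15a and 0.38 for Hspa5 with Atf4. In the 11 number-last libraries these pairs had r = 0.11 and 0.26 (adjusted p = 0.98 and 0.938, permutation), and the difference between styles was not tested.

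Within number-last libraries Hsp90b1 and Canx had r = 0.74 (permutation p = 0.0097, adjusted p = 0.116) and rho 0.84 (permutation p = 0.00231, adjusted p = 0.0421), and r = 0.78 without 2 libraries. Canx and Ddit3 had r = -0.68 (permutation p = 0.0211, adjusted p = 0.173), rho -0.84 (permutation p = 0.00224, adjusted p = 0.0421) and r = -0.79 without 2. In number-first libraries those pairs had r = 0.31 and -0.07. Genotype was not removed from these correlations. The number-last libraries of JAK2V617F and Ezh2 loss (5 each) averaged 386 and 287 RPKM of Canx, and 68.7 and 101 RPKM of Ddit3. The part of that difference in the correlation of Canx and Ddit3 was not tested. Calr and Ppp1r15a had r = 0.77 in number-last libraries (permutation p = 0.0057, adjusted p = 0.103), rho 0.72 (permutation p = 0.0154, adjusted p = 0.139) and r = 0.66 without 2. Atf4 and Hsp90aa1 had r = 0.68 in number-first libraries (permutation p = 0.00554, adjusted p = 0.103), with rho 0.77 (permutation p = 0.00157, adjusted p = 0.0421) and r = 0.51 without 2 libraries (also 0.51 without those 3 double mutant libraries). The 10 pairs among the ER members had a median r of 0.29 in number-first and 0.49 in number-last libraries. The 5 pairs of Hsp90aa1 with the ER members had a median r of 0.51 in number-first and -0.23 in number-last libraries. Canx and Calr were at -0.04 and -0.29.

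**Figure D5:**
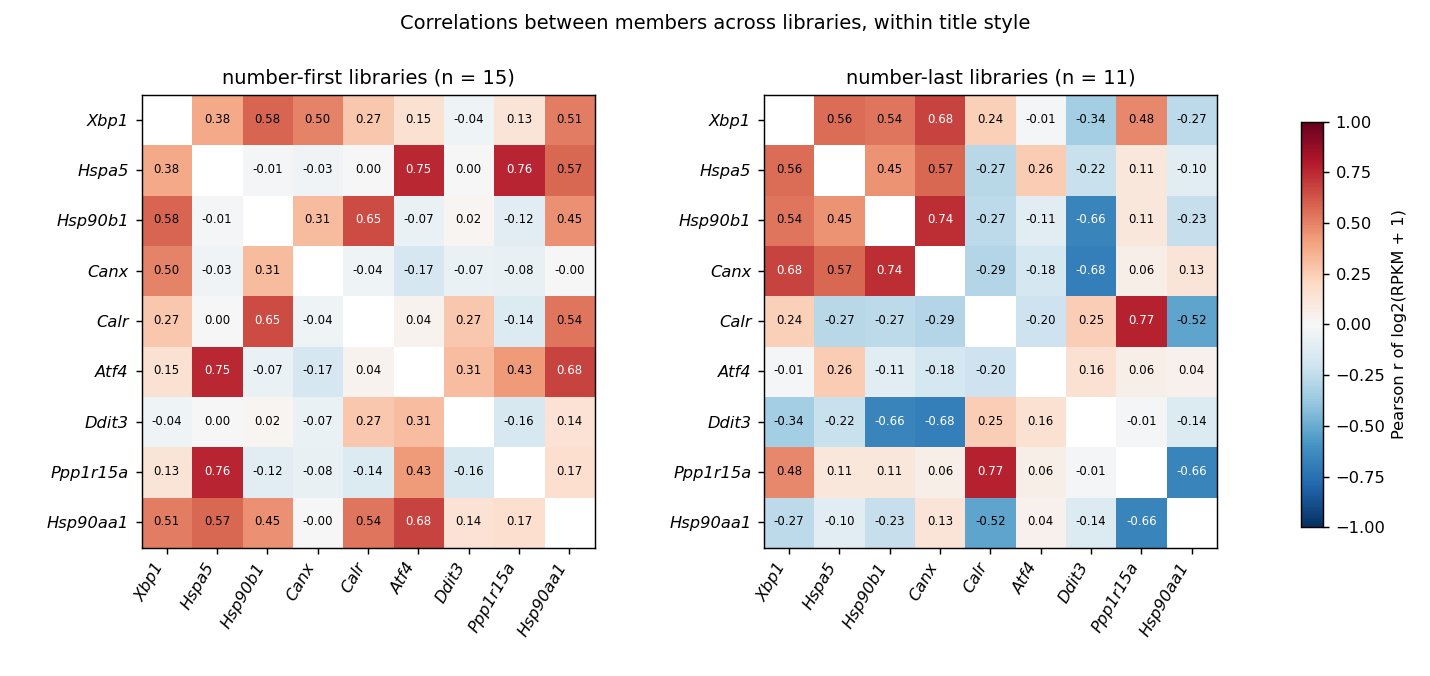
Pearson r of log2(RPKM + 1) between 9 members in 15 number-first and 11 number-last libraries, red for positive and blue for negative. Hspa5 with Ppp1r15a (0.76) and Atf4 (0.75) are strongest on the left, and Calr with Ppp1r15a (0.77) and Hsp90b1 with Canx (0.74) on the right.

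Over all 26 libraries, after group and style were removed, the genes most like Xbp1 among 8308 compared were Lenep (r = 0.81), Phkb (0.76), P4hb (0.72), Slc16a12 (0.71) and Ddx6 (0.69). P4hb encodes a protein disulfide isomerase of the ER. Those most like Hspa5 were Mafk (0.79), Klhl2 (0.77), Fam108b (0.77), Zfp36l2 (0.76) and Cbfa2t3 (0.74), none of them from the folding lists. Those most like Hsp90aa1 were the ribosomal RNA precursor Rn45s (0.78), Lars2 (0.73), Hnrnpc (0.68), Mrps12 (0.66) and Snord104 (0.64). The r of Rn45s was 0.87 in number-first and 0.19 in number-last libraries. These are descriptions over 26 libraries that differ in depth, with no p.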

How the data were processed

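The authors deposited 1 table of RPKM for 26 libraries, and 0 of its columns had no sample. The submitters' processing notes name the aligner STAR (2.4.2a), Subread (1.5.0) and SAMtools (0.1.19), and as builds mm10 and GRCm38. Settings, annotation and the treatment of reads shared between genes are not stated there. Groups came from the genotype label, and replicate numbers follow accession order. The 12116 genes that reached 1 RPKM in 5 or more libraries were fitted as log2(RPKM + 1) with limma 3.58.1 in R 4.3.3: 1 mean per group plus title style, moderated variances (trend, robust), two-sided, Benjamini-Hochberg over all tested genes, passing at adjusted p under 0.05. Fold changes of low genes are understated by the added 1. The fit was tested on simulated data with independent normal noise in each gene. The simulated libraries did not differ by sets of other cells' transcripts, so that test does not cover this feature of the data. The members, lists, tests and naming rule were chosen with earlier results of these data known. Every member is named; contrasts with control carry no p, other genotype contrasts are printed where the unadjusted p was under 0.05, and title style for every member. The interaction, built from the contrasts with control, is given without a p. From each list, up to 4 passing genes with the smallest p are named. Hspa1a differed from that rule: it is given no test, also by title style, because it passed the filter only through Ezh2 loss. Correlations used 100000 permutations in SciPy 1.17.1.

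Low RPKM values fall on whole-read steps. One gene length per member gave whole reads in all 26 libraries within 0.001 reads. Coordinates are those of GENCODE M21 (GRCm38), in which 21751 of 23416 symbols were found, and promoter sequences are from RefSeq (GRCm38.p6). Alternatives were a fit without style, number-first libraries alone, JAK2V617F and Ezh2 loss libraries alone, number-last libraries alone, pseudocounts 0.1 and 5, no filter, TPM, median-ratio scaling, a neutrophil covariate, a replicate block in 8 number-last libraries and leaving out each library.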

Additional observations from a re-analysis of the deposited data

Results flagged for a closer look

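In 3 of 39 groups of values, 1 library lay far from the rest of its group by Dixon's ratio, where chance gives about 1 in 20. That share does not apply to the 2 of Hspa1a, whose other libraries in these groups were at 0 or near it, so that any library with reads stands apart. Canx was at 462 RPKM in control replicate 5, with the next control library at 179 RPKM, and that library is the only number-last control. Hspa1a was at 0.93 RPKM in double mutant replicate 7, with the next at 0.0155 RPKM. Hspa1a was at 0.688 RPKM in control replicate 3, with the other control libraries at 0, and the same library had 7.96 RPKM of Hspa1b.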

How the results depend on the processing

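Canx and Calr kept their direction and stayed past the threshold by title style under all 7 other settings and with each library left out (Canx -1.61 to -1.35, Calr 0.76 to 0.94). Without JAK2V617F replicate 2, Atf4 passed at 0.73 (limma adjusted p = 0.0495). The genes passing by title style numbered 715 in JAK2V617F and Ezh2 loss libraries alone, and 987 to 1373 with 1 library left out. Without the style term, 0 genes passed in double mutant, 1 in JAK2V617F against control, 274 in double mutant against JAK2V617F, 85 in double mutant against Ezh2 loss and 215 in the interaction. In number-first libraries the counts were 0, 0, 0 and 8 in the first 4 of those contrasts and 0 in Ezh2 loss against JAK2V617F. Without the filter they were 2 in double mutant against control, 1 in double mutant against Ezh2 loss, 7 in Ezh2 loss against JAK2V617F and 1 in the interaction. In TPM, 4 passed in double mutant against control and 7 against JAK2V617F, and with the neutrophil covariate 0 against control and 3 against Ezh2 loss. A pseudocount of 0.1 gave 1 in JAK2V617F against control. Leaving out 1 library gave 0 to 6 in double mutant, 0 to 1 in JAK2V617F and 0 to 1 in Ezh2 loss against control, 3 to 8 in double mutant against JAK2V617F, 0 to 1 against Ezh2 loss, 9 to 17 in Ezh2 loss against JAK2V617F and 0 to 1 in the interaction. Causes were not tested.

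Small style values changed sign: Xbp1 to -0.056 in TPM and -0.066 under median-ratio scaling (-0.061 to 0.14 with 1 library left out), Hsp90b1 to -0.011 and -0.021 (-0.054 to 0.11), Hspa1a to -0.044 with a pseudocount of 5 (-0.058 to 0.16), and Hsp90aa1 with 1 library left out (-0.22 to 0.0097). The gap between ER and cytosolic genes was 5.61, 5.66 and 5.77 in double mutant, JAK2V617F and control with a pseudocount of 0.1, and 3.03, 2.86 and 3.23 with 5, because Hspa1a is near 0. Title numbers 2 to 5 recur in JAK2V617F and Ezh2 loss number-last libraries. Same-numbered libraries correlated at -0.057 to 0.023, within the -0.064 to 0.10 of differently numbered ones. No pairing was seen, but so few pairs cannot exclude it. With the replicate block 1 gene passed, and 5 in the same 8 libraries without it, a fit added after seeing the data. Leaving out any of 5 Ezh2 loss libraries removed Hspa1a from the test, and a count of 0 allows it up to 3 reads.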
